A study of Mus musculus with 76 samples.

Results

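Plscr1, Wfdc17, Serpinb1a, Clec10a, Ctla2b and Hgf were examined as candidate followers of Runx1 and Lmo2 in single blood progenitor cells. They were picked by name, from correlations in these same cells, and make up 6 of the 15192 genes in the deposited table. The cells were 76 iHPCs, progenitors of mouse origin obtained from pluripotent stem cells in which Runx1, Hoxa9 and Hoxa10 are expressed together from inducible copies. All 76 cells belong to 1 group with that genotype and treatment, no cell without the introduced factors was available for comparison, and the labels assign no cell to a culture, animal or sorting run. The group therefore counts as 1 sample, and every relation across cells below is a description without a p-value. Levels are in TPM, a gene's length-scaled share of the transcripts of a cell, and a gene counted as detected at 1 TPM and as on at 10 TPM. Between 2465 and 5992 genes were detected in a cell.

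Runx1 is a DNA-binding transcription factor that pairs with Cbfb and is required for blood cells to emerge from endothelium. Lmo2 binds no DNA itself and bridges Tal1 or Lyl1, E proteins, Gata factors and Ldb1 into a complex that often shares target sites with Runx1 in progenitors. The genes examined encode proteins of different kinds. Plscr1 is a membrane phospholipid scramblase known as an interferon-induced gene, and Clec10a is a galactose-binding C-type lectin receptor of macrophages and dendritic cells. Wfdc17, Serpinb1a and Ctla2b encode protease inhibitors, respectively a small secreted WAP domain protein of activated macrophages, an intracellular inhibitor of neutrophil serine proteases, and a protein related to the inhibitory propeptide of cathepsins. Hgf is hepatocyte growth factor, the ligand of the receptor Met.

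Promoter windows from RefSeq (build GRCm38.p6) were found for 4 of the 6 genes, Plscr1, Wfdc17, Ctla2b and Hgf. The 250 bases before the start were searched on both strands for the RUNX motifs TGTGGT and TGCGGT, the GATA motifs AGATAA and TGATAA, the E-box CAGNTG, the ETS motif AGGAAG and the interferon-stimulated response element. The stretches below are from the windows of Plscr1 and Wfdc17, where a RUNX motif was found, and of Hgf, where none was. For Hgf the first window is shown in full. Serpinb1a and Clec10a had no window, and a link between motif and expression was not tested. All are on the plus strand of their gene, and capitals mark a RUNX motif. They cover chr9:92249971-92250000 for Plscr1, chr11:83703806-83703990 for Wfdc17 and chr5:16553245-16553494 for Hgf. All lie upstream of the RefSeq start. However, all 30 bases of the Plscr1 stretch lie in an exon of the GENCODE M21 gene model, which starts at 92249750. The Wfdc17 stretch ends just before the GENCODE model starts.
Plscr1: tgatggaacagaTGTGGTaatcgatgcata
Wfdc17: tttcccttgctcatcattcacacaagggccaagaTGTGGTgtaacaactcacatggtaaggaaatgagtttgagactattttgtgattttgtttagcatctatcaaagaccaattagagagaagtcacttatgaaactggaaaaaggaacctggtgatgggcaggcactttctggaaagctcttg
Hgf: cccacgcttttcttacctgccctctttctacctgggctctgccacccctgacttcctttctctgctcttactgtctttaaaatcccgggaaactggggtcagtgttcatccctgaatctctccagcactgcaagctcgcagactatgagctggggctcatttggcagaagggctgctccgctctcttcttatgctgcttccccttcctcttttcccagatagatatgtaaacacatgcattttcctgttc
TGTGGT began 211 bases before the start in Plscr1, where it overlapped an E-box match, and 216 bases before it in Wfdc17. Neither RUNX motif was found in the windows of Ctla2b or Hgf. Of all 32851 promoter windows, 14.05% held TGTGGT and 18.6% held either RUNX motif. No GATA motif or interferon-stimulated response element was found in the windows of these 4 genes, against 16.6% of all windows with either GATA motif and 2.98% with the response element. AGGAAG was present in all 4 genes and in 29.5% of all windows. A match is a run of letters and not a measured binding site.

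Runx1 itself was detected at 1 TPM or more in 73 of 76 cells, with a lowest value of 0.304 TPM, a median of 100.4 TPM and a highest value of 344 TPM. Lmo2 ranged from 0 to 1608 TPM with a median of 59.5 TPM. It was at 0 in 11 cells and at 10 TPM or more in 46, and all 46 of those also had Runx1 at 10 TPM or more. The levels of the factors were correlated (Spearman rho 0.60, Pearson r 0.54 on log2(TPM + 1), 76 cells). Gene-level TPM does not separate introduced from chromosomal Runx1 transcripts.

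**Figure D1:**
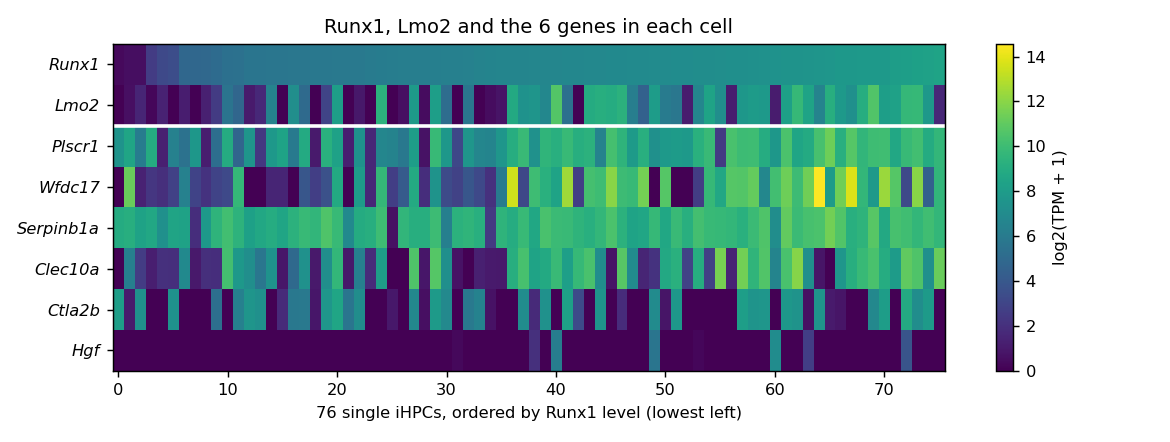
Each column is 1 of 76 cells, ordered from the lowest to the highest Runx1 level, each row a gene, and the colour its log2(TPM + 1). Wfdc17 and Clec10a switch between low and high values and are high more often towards the right, Serpinb1a is high in nearly all cells, Ctla2b is high in cells along the whole order and Hgf in few.

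Different on and off patterns were seen among the 6 genes. Serpinb1a was on in 73 of 76 cells and Plscr1 in 67. Wfdc17 and Clec10a were on in about 6 of 10 cells and spanned orders of magnitude. Ctla2b was on in fewer than 5 of 10 cells and Hgf was rare. By a rho of at least 0.4, only 4 of the 6 genes followed both factors in these cells, namely Plscr1, Wfdc17, Serpinb1a and Clec10a. Ctla2b did not, so the description of the set as followers of Runx1 and Lmo2 does not hold for its deposited values by that limit. The split of reads between Ctla2b and its paralogue Ctla2a is uncertain, however. The sum of both genes had a rho of 0.44 with Lmo2 and 0.24 with Runx1. Hgf did not reach the limit either, but it was detected in 6 cells, too few for rho to decide whether it follows.

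Plscr1 (chromosome 9, 92250194 to 92272561, plus strand, GRCm38.p6, Ensembl ENSMUSG00000032369, at most 9 exons per transcript) ranged from 0.648 to 2598 TPM with a median of 331 TPM. It was detected in 75 cells (98.7%, exact Clopper-Pearson 95% interval 92.9 to 99.97%) and reached 10 TPM in 67 (88.2%, 78.7 to 94.4%). No cell lay between 8.02 and 26.1 TPM, so the 9 low cells stood apart from the 67 others. Such a gap was not particular to Plscr1, as Runx1 had none between 9.83 and 28.3 TPM and Lmo2 none between 6.81 and 21.9 TPM. In the 25 cells with the lowest Runx1 the median of Plscr1 was 99.98 TPM, in the middle 26 cells 233 TPM and in the highest 25 cells 803 TPM. These bins are ranges of a continuous level, with Runx1 at 68.01 and 71.97 TPM on either side of the first limit and at 128 and 134 TPM on either side of the second. Plscr1 values of the lowest bin (1.09 to 600 TPM) and of the highest (4.62 to 2598 TPM) overlapped.

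Clec10a (chromosome 11, 70166623 to 70170836, plus strand, ENSMUSG00000000318, at most 10 exons) ranged from 0 to 3855 TPM with a median of 146 TPM. It was at 0 in 5 cells, between 1 and 10 TPM in 15 and at 10 TPM or more in 48 (63.2%, 51.3 to 73.9%), and no cell lay between 6.37 and 30.03 TPM. Among 8034 genes found in at least 10 cells, its SD on the log2(TPM + 1) scale ranked 3, at 3.97. Its median was 487 TPM in the 46 cells with Lmo2 at 10 TPM or more (range 0 to 3855 TPM) and 2.56 TPM in the 30 others (range 0 to 2437 TPM). Clec10a was on in 39 of the former (84.8%, 71.1 to 93.7%) and in 9 of the latter (30%, 14.7 to 49.4%), so both sets held cells of either kind.

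Wfdc17 (chromosome 11, 83704056 to 83706269, plus strand, ENSMUSG00000069792, 3 exons) had the widest spread of any gene found in at least 10 cells, with an SD of 4.34 on the log2(TPM + 1) scale. Its values ran from 0 to 24174 TPM with a median of 141 TPM. The gene was at 0 in 8 cells, between 1 and 10 TPM in 22, and at 10 TPM or more in 46 (60.5%, 48.6 to 71.6%), and its upper quartile was 1067 TPM. Unlike the lectin gene it had no wide gap between low and high cells, the values on either side of 10 TPM being 8.99 and 11.3 TPM. Its share of cells at 10 TPM was 32% (14.9 to 53.5%) in the 25 cells lowest in Runx1, 65.4% in the middle 26 and 84% (63.9 to 95.5%) in the highest 25, with medians of 5.41, 264 and 1028 TPM.

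Serpinb1a (chromosome 13, 32842092 to 32853206, minus strand, ENSMUSG00000044734, at most 7 exons) ranged from 0.584 to 2791 TPM with a median of 699 TPM and was at 10 TPM or more in 73 cells (96.1%, 88.9 to 99.2%). The values of the 3 other cells were 0.584, 2.79 and 4.44 TPM, and the next cell had 75.7 TPM. In those 3 cells Lmo2 was at 0, 0 and 0.405 TPM while Runx1 was at 71.97, 28.6 and 93.3 TPM. The quartiles over all 76 cells were 442 and 964 TPM. Its median was higher with more Lmo2, from 498 TPM in the lowest 25 cells to 718 TPM in the middle 26 and 971 TPM in the highest 25.

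Ctla2b (chromosome 13, 60895351 to 60897934, minus strand, ENSMUSG00000074874, at most 5 exons) was at 0 in 28 cells and at 10 TPM or more in 35 (46.1%, 34.5 to 57.9%), with a highest value of 480 TPM and a median of 170.7 TPM in the 35 cells. No cell lay between 8.50 and 38.8 TPM. The gene was on in 13 of the 25 cells lowest in Runx1, in 10 of the middle 26 and in 12 of the highest 25. Its presence followed no order along Runx1. Along Lmo2 it was on in 6 of the lowest 25 cells, 16 of the middle 26 and 13 of the highest 25, with medians of 0.487, 58.1 and 105 TPM, so it was least frequent where Lmo2 was lowest although its rho with Lmo2 was low.

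Hgf (chromosome 5, 16553495 to 16619439, plus strand, ENSMUSG00000028864, at most 19 exons) was above 0 in 8 cells and at 1 TPM or more in 6 (7.89%, 2.95 to 16.4%). The 6 values were 132, 71.4, 49.4, 12.8, 5.55 and 2.98 TPM. Runx1 in the same 6 cells was at 171, 103, 128, 289, 182 and 101 TPM, all above its median over all cells. None of the 25 cells lowest in Runx1 held an Hgf value above 0. With 6 cells, Hgf did not enter the set of genes compared in rank, which required 10.

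**Figure D2:**
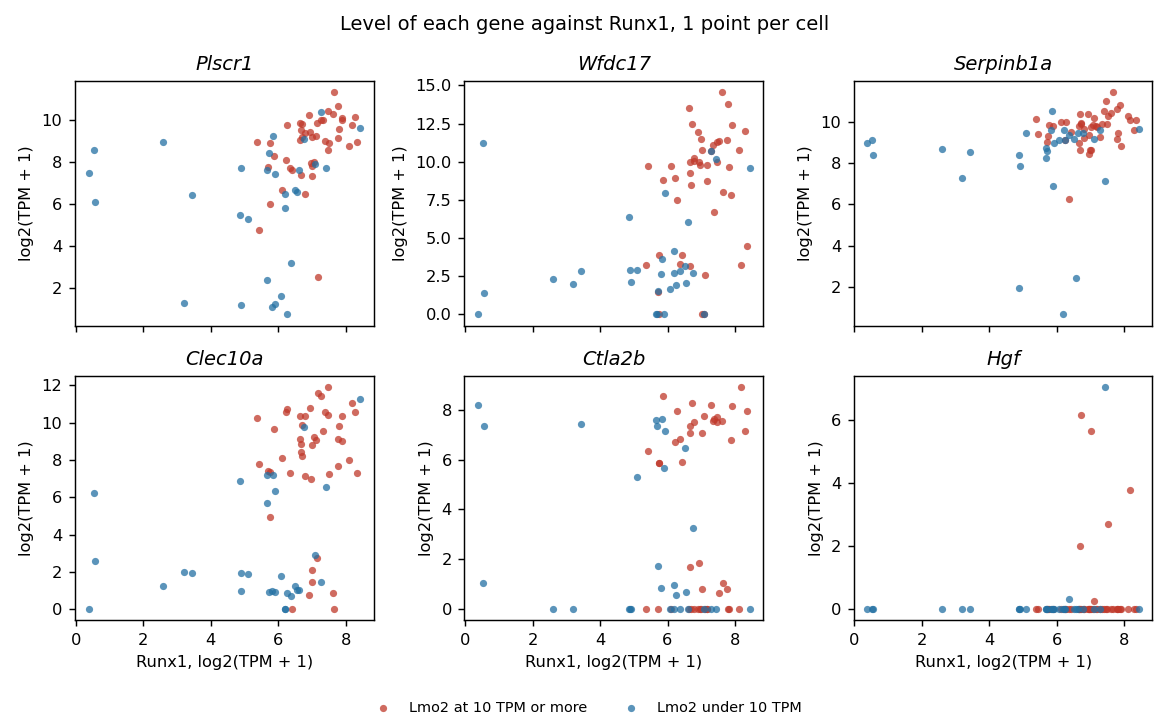
Each panel plots 1 gene against Runx1, both as log2(TPM + 1), with 1 point per cell, red where Lmo2 was at 10 TPM or more (46 cells) and blue where it was lower (30 cells). Plscr1 rises along Runx1, Clec10a and Ctla2b each form a high and a low band, and Hgf is at 0 in 68 cells.

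The members were chosen for their relation to the factors, so the following rho values describe the choice and test nothing. With Runx1, Plscr1 had the highest rho of all 8033 genes compared (rho 0.64, r 0.36), Wfdc17 ranked 4 (rho 0.56, r 0.42), Serpinb1a 5 (rho 0.52, r 0.25) and Clec10a 17 (rho 0.44, r 0.39). The other introduced factors also went with Runx1, Hoxa10 at rank 2 (rho 0.63) and Hoxa9 at rank 8 (rho 0.49). With Hoxa10, rho was 0.42 for Plscr1, 0.44 for Wfdc17, 0.26 for Serpinb1a and 0.31 for Clec10a. The part of Hoxa9 and Hoxa10 in the relations to Runx1 was not tested. Ctla2b ranked 2164 (rho 0.060, r -0.017), and Hgf had rho 0.21 and r 0.16, a rho above that of 95.2% of the genes compared. With Lmo2, Clec10a ranked 2 (rho 0.63, r 0.64), Serpinb1a 5 (rho 0.60, r 0.48), Plscr1 7 (rho 0.57, r 0.54) and Wfdc17 9 (rho 0.55, r 0.57). Ctla2b ranked 893 (rho 0.16, r 0.20), and Hgf had rho 0.16 and r 0.16, a rho above that of 88.5% of the genes compared. The median rho of the 6 genes was 0.48 with Runx1 and 0.56 with Lmo2, beside -0.025 and -0.019 over all genes compared. A rho of at least 0.4 was reached by 4 of the 6 genes with each factor, beside 0.448% of all genes with Runx1, 0.56% with Lmo2 and 0.261% with both. The genes nearest the limit for Runx1 were Cd34 (0.401) inside and Gng11 (0.397) outside it. For Lmo2 they were Fkbp1a (0.4001) and Tex261 (0.39996).

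**Figure D3:**
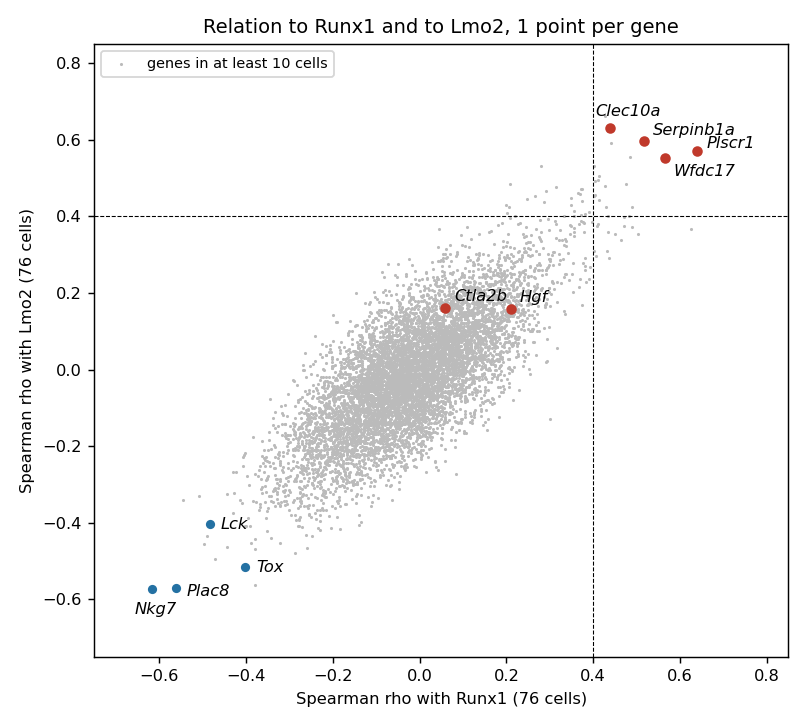
Each grey point is a gene found in at least 10 cells. Its place is its Spearman rho over 76 cells with Runx1 (x axis) and with Lmo2 (y axis). Red points are the 6 genes, blue points 4 genes that ran opposite to their mean, and dashed lines mark 0.4. Plscr1, Wfdc17, Serpinb1a and Clec10a sit at the upper right edge of the cloud, whereas Ctla2b (0.060 and 0.16) and Hgf (0.21 and 0.16) lie inside it.

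The rank relation between Plscr1 and Runx1 was stronger than the linear one. In all, 6 cells had Runx1 under 10 TPM, and Plscr1 was nonetheless at 179, 384, 67.6, 500.3, 1.38 and 84.4 TPM in them. Serpinb1a was on in all 6, at 157 to 552 TPM. Clec10a and Wfdc17 were on in only 1 of the 6 cells, the same one, with 75.5 and 2449 TPM. Wfdc17 was thus at 10 TPM in 45 of the 70 cells with Runx1 at that level and in 1 of the 6 without, and Clec10a in 47 and 1. In the 9 cells with Plscr1 under 10 TPM, Runx1 lay between 8.19 and 144 TPM, and Serpinb1a was on in all 9 whereas Lmo2 and Wfdc17 were each on in 1.

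The 4 genes were also described with the other factor held constant, by partial rank correlation. Clec10a kept a rho of 0.51 with Lmo2 given Runx1 and had 0.096 with Runx1 given Lmo2. Serpinb1a had 0.42 with Lmo2 and 0.24 with Runx1. Plscr1 had 0.45 with Runx1 and 0.30 with Lmo2, and Wfdc17 0.35 and 0.32. The difference between the partial values of a gene was not tested. In 13 cells with Lmo2 on and Runx1 below its median, Clec10a was on in 12 and Wfdc17 in 8, with medians of 278 and 14.02 TPM. In 33 cells with Lmo2 on and Runx1 above its median, Clec10a was on in 27 and Wfdc17 in 29, with medians of 511 and 1034 TPM. In the 5 cells with Runx1 above its median and Lmo2 off, each was on in 3, with medians of 93.7 TPM for Clec10a and 758 TPM for Wfdc17. In 25 cells with neither, each was on in 6.

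Among cells in which both genes reached 10 TPM, the level of Plscr1 still rose with that of Runx1 (rho 0.63, 62 cells), and rho was 0.44 for Wfdc17 (45 cells), 0.42 for Serpinb1a (67 cells) and 0.40 for Clec10a (47 cells). With Lmo2 the values were 0.43 for Clec10a (39 cells), 0.31 for Plscr1 (45 cells), 0.31 for Serpinb1a (46 cells) and -0.026 for Wfdc17 (37 cells). For Wfdc17 and Lmo2, presence was related (37 cells with both on against 27.8 from independent shares) while level among those cells was not. Ctla2b had a rho of 0.48 with Runx1 within the 32 cells where both were on, against 0.060 over all cells.

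Shared technical measures were set beside these values. The number of genes detected per cell had a rho of -0.31 with Plscr1, -0.19 with Wfdc17, -0.19 with Serpinb1a, -0.073 with Clec10a, 0.041 with Ctla2b and 0.13 with Hgf. With it taken out, the rho with Runx1 was 0.63 for Plscr1, 0.55 for Wfdc17, 0.50 for Serpinb1a and 0.43 for Clec10a. The ribosomal-protein share of TPM had a rho of -0.35 with Plscr1 and -0.34 with Clec10a, and -0.35 with Runx1; with it taken out, the rho with Runx1 was 0.59 for Plscr1, 0.54 for Wfdc17, 0.47 for Serpinb1a and 0.36 for Clec10a, the last under the limit of 0.4. The rho with Lmo2 was then 0.51, 0.53, 0.56 and 0.58. The part of these measures in the relations was not tested further. Titles carry a number from 2 to 11. In the 37 cells with numbers 2 to 6 the rho with Runx1 was 0.60 for Plscr1, 0.54 for Wfdc17, 0.46 for Serpinb1a and 0.38 for Clec10a, and in the 39 cells with numbers 7 to 11 it was 0.67, 0.52, 0.56 and 0.49. Leaving out the 2 cells most distant in Runx1 level, the 4 values were 0.64, 0.58, 0.51 and 0.42.

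At 10 TPM the 6 genes were on together more unevenly than independent shares would give. They were picked from correlations in these same cells, so such an excess is in part built in and tests nothing. Other sets of genes were not compared. No cell held none or all 6, 9 cells held 1, 4 held 2, 18 held 3, 23 held 4 and 22 held 5. Independent shares would give 0.949 cells with 1 gene and 12.3 with 5. At least 4 of the genes were held by 45 cells at 10 TPM (59.2%, 47.3 to 70.4%) against 41.9 from independent shares. At 1 TPM it was 66 cells (86.8%, 77.1 to 93.5%) against 66.1. By single counts at 1 TPM, no cell held 1 gene, against 0.0165, and 32 held 5, against 30.1. Plscr1 and Serpinb1a were each detected in 75 cells at 1 TPM, which leaves little room for a departure at that threshold. The commonest set at 10 TPM, in 19 cells, was every gene except Hgf, followed by Plscr1, Wfdc17, Serpinb1a and Clec10a in 15 cells. Median Runx1 was 66.2 TPM in the 9 cells with 1 gene and 132 TPM in the 22 cells with 5, and median Lmo2 was 0 and 245 TPM.

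**Figure D4:**
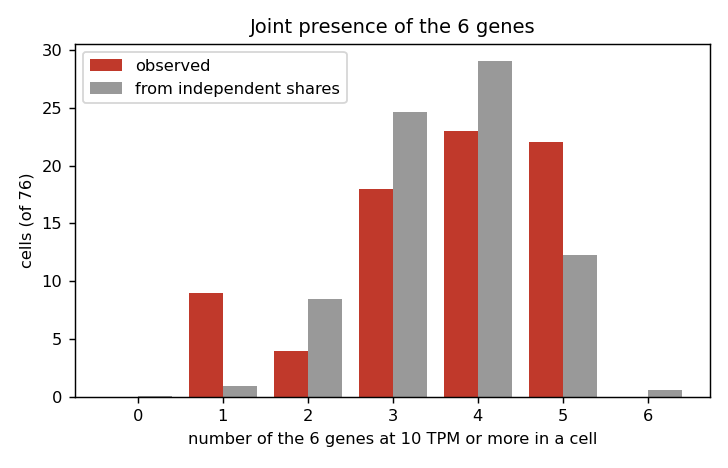
Bars give the number of cells (of 76) by how many of the 6 genes reached 10 TPM, red as observed and grey as the product of the genes' separate shares would give. Cells with 1 gene (9 against 0.949) and with 5 genes (22 against 12.3) are more numerous than from independent shares, which the choice of the genes fixes in part.

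Of the 15 pairs among the 6 genes the median rho was 0.23, with a range from -0.11 to 0.60. The choice of the members fixes the values of the pairs in part too. The 6 pairs among Plscr1, Wfdc17, Serpinb1a and Clec10a ran from 0.34 to 0.60 with a median of 0.41, and the 9 pairs with Ctla2b or Hgf from -0.11 to 0.24. Plscr1 with Wfdc17 was the highest pair, and at 10 TPM 45 of the 46 Wfdc17 cells held Plscr1. Wfdc17 and Clec10a were on together in 37 cells against 29.1 from independent shares, yet within those 37 cells their levels were unrelated in rank (rho -0.0050). Wfdc17 and Ctla2b were together in 21 cells against 21.2. Hgf and Ctla2b were together in 2 cells against 1.84.

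Identical stretches could let reads be exchanged between Clec10a or Ctla2b and related genes. Mgl2, a second galactose-binding lectin gene 29081 bases from Clec10a, was the gene most like Clec10a (rho 0.71). It was at 1 TPM or more in 21 cells, where Clec10a lay between 278 and 3855 TPM, and in each of them Mgl2 amounted to between 0.906 and 2.71% of the Clec10a value. Of the 50-base stretches of Clec10a transcripts in GENCODE M21, 8.63% also occur in Mgl2. Mgl2 was present in 17 of the 25 cells with Clec10a at 500 TPM or more, and Clec10a reached 1529 TPM in a cell without it. Whether the low Mgl2 values come from reads of Clec10a was not tested. Ctla2a, the paralogue of Ctla2b, was on in all 76 cells with a range of 34.95 to 1881 TPM and a median of 521 TPM. Of the 50-base stretches of Ctla2b, 15.4% occur in Ctla2a and 89.3% in the overlapping gene model Gm49391, which is not among the genes of the table. The split of reads between Ctla2a and Ctla2b, and with it the on and off pattern of Ctla2b, is uncertain. Ctla2b made up 10% or more of the sum of both genes in 31 cells and at most 52.6%. Ctla2a had a rho of 0.45 with Lmo2 and 0.25 with Runx1, and the sum of both genes 0.44 and 0.24. The shared portion was 12.8% for Plscr1 and 3.12% for Serpinb1a, and 0 for Wfdc17 and Hgf.

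**Figure D5:**
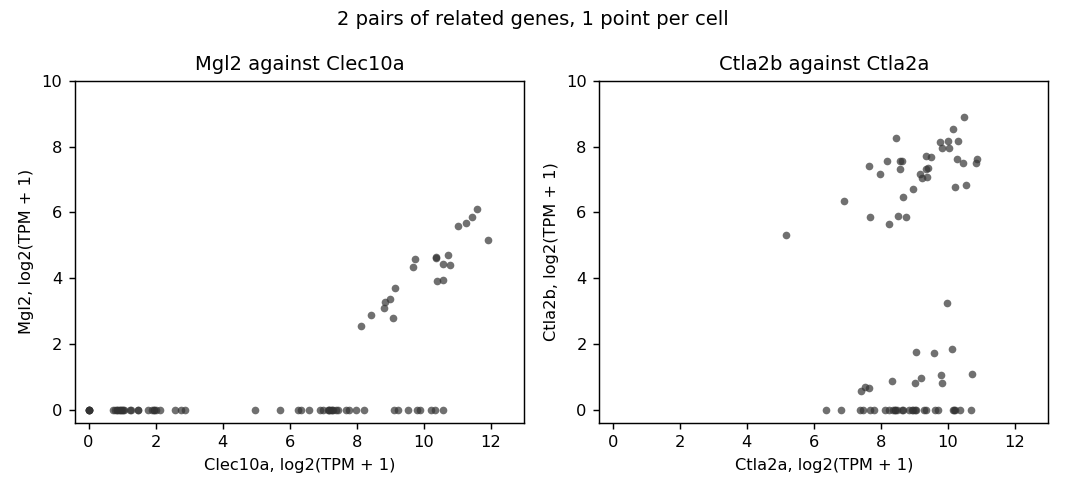
The left panel plots Mgl2 against Clec10a and the right panel Ctla2b against Ctla2a, as log2(TPM + 1), with 1 point per cell. Mgl2 lies on a line below Clec10a in its 21 cells and is at 0 in the others, whereas Ctla2b splits into a high and a low band at similar levels of Ctla2a.

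Of the 12 genes adjacent to the members, 8 had values in the table, among them Mgl2. Plscr5 beside Plscr1, Tpbpb beside Ctla2b, and Cacna2d1 and Gm28710 beside Hgf were not found under these symbols among the genes of the table. The 7 others with values were found in 20 cells or fewer. Wfdc18 and Ccl4 beside Wfdc17 were found in 4 and 9 cells, Plscr2 beside Plscr1 in 3, Slc16a11 beside Clec10a in 1, Wrnip1 beside Serpinb1a in 20 and 4930486L24Rik beside Ctla2b in 12. Serpinb1c, on the other side of Serpinb1a, reached 1 TPM in 13 cells and at most 14.4 TPM (rho 0.37 with Serpinb1a), and 2.24% of the 50-base stretches of Serpinb1a occur in it.

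Genes known to act with each member were compared with it over the 76 cells, with a rho of at least 0.3 or at most -0.3 counted. Of the 26 interferon response genes in at least 10 cells, none reached either limit with Plscr1, beside 1.67% and 3.09% of all genes, and their median rho with it was -0.030, beside -0.038 over all genes. Among them Irf7, a regulator of interferon genes, had 0.019, and Bst2, a tetherin that holds back viruses, -0.20. The scramblase gene Plscr3, found in 50 cells, had a rho of -0.14 with Plscr1. Of the 6 granule serine protease genes tested, targets of Serpinb1a among them, none reached either limit with Serpinb1a, beside 1.17% and 1.43% of all genes, and their median rho was -0.048, beside -0.026. Prtn3 (proteinase 3) had -0.093 and Ctsg (cathepsin G) 0.10, and Elane (neutrophil elastase) was in 2 cells. With Wfdc17, the granule gene Ctsg had a rho of 0.43 and Prss57, a serine protease gene of granules, -0.34, the only 2 of the 6 past either limit, beside 1.37% and 1.74% of all genes.

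Among 5 other myeloid C-type lectin genes tested, Mgl2 alone reached 0.3 with Clec10a and none reached -0.3, beside 2.02% and 1.42% of all genes, with a median of -0.013 beside -0.00083. Clec4d and Clec4e, receptors for microbial glycolipids found in 51 cells each, had -0.013 and 0.16. Of 11 papain-like cathepsin and inhibitor genes, only Ctla2a (0.31) reached 0.3 with Ctla2b and none reached -0.3, beside 0.809% and 0.747% of all genes, with a median of -0.011 beside 0.011. Ctsl, a cathepsin that the Ctla2 proteins resemble in their propeptide, had -0.041 and was in 37 cells. Met, the receptor for Hgf, was at 1 TPM or more in 1 cell and at most at 1.35 TPM, and St14 and Spint1, an activator of Hgf and its inhibitor, were in 5 and 1 cells. None of the 3 genes of Hgf activation and signalling found in at least 10 cells reached either limit with Hgf, beside 0.697% and 0.224% of all genes. Spint2, a second inhibitor of Hgf activation, was in 68 cells and had a rho of -0.39 with Clec10a and -0.33 with Plscr1.

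The mean log2(TPM + 1) of the 6 genes was then used to ask which other genes vary with them. Past a rho of 0.3 lay 2.19% of the 8029 genes and past -0.3 2.25%, with a median of -0.012. Lmo2 (0.74) and Runx1 (0.61) came first, as the choice of members fixes in part. The next genes were Socs2, an inhibitor of cytokine receptor signalling (0.60), Cd48, a surface molecule of blood progenitors (0.58), Tspan32, a tetraspanin (0.58), Lilrb4, an inhibitory immunoglobulin-like receptor (0.58), Mgl2 (0.56), 1810006J02Rik (0.54), Gp49a, a relative of Lilrb4 (0.53), and Fam213a (0.53). Lilrb4 and Gp49a are closely related, so their reads may be shared. The genes most alike to single members were mostly other members and the factors. Cd48 had a rho of 0.65 with Clec10a. Ctla2b was closest to Gm3435 (0.46), 2210404J11Rik (0.46) and Stk11, a kinase gene (0.45). Hgf was closest to Hoxa9, which is an introduced factor (0.46), Atp6v0a1 (0.44) and Dusp5 (0.44), values that rest on the 8 cells with Hgf above 0.

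Cell type markers and regulators stood as follows against the mean of the 6 genes. Of 9 stem and progenitor surface genes tested, those past 0.3 included Cd48 (0.58), Cd34 (0.50) and Ly6a (0.39), and Cd27 (-0.41) lay past -0.3. Their summed level, 570 to 6307 TPM over cells, had a rho of 0.67, and the median rho of the 9 was 0.21. Of 9 genes of the Lmo2 complex and its partner factors, Tcf4 (0.44) and Gata2 (0.37) lay past 0.3 and Meis1 (-0.35) past -0.3, and Lyl1, found in 67 cells, had 0.14, which was also the median. Of 5 genes of the Runx family and its partners none lay past either limit, with Cbfb at 0.16 and a median of 0.13. Of 12 genes listed as known Runx1 targets, the T cell kinase gene Lck (-0.53) lay past -0.3, with a median of -0.043. Hoxa9 and Hoxa10 had 0.32 and 0.35. Of 5 macrophage marker genes tested none lay past either limit with the mean. With single members, Lyz2, the lysozyme gene, had 0.35 with Wfdc17 and 0.17 with Clec10a, and Cd68, a lysosomal membrane protein gene, -0.44 with Plscr1. The macrophage list summed to between 0 and 2185 TPM, and Mertk and C1qb were at 0 in every cell, and the median rho was -0.15. Of 6 dendritic cell marker genes tested, Tcf4 alone lay past 0.3, with a median of 0.16, and the summed level of the list, 1.83 to 1509 TPM, had a rho of 0.35. Of 23 S phase genes Mcm5 (-0.34) and Cdc45 (-0.38) lay past -0.3 with a median of -0.14, and of 20 G2 and M phase genes none did, with a median of -0.029.

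Genes that ran opposite to the mean of the 6 were examined after their values were seen. The lowest rho with the mean belonged to Plac8, a small cysteine-rich protein gene (-0.67), Nkg7, a cytotoxic granule gene (-0.64), Tox, a regulator of T cell development (-0.55), and Lck (-0.53). Single members differed: in the same order, Ctla2b had a rho of -0.056, -0.020, -0.17 and 0.052 with them. Hgf had 0.064, -0.090, -0.11 and -0.014. In the 30 cells with Lck at 10 TPM or more, Wfdc17 was on in 7 with a median of 5.18 TPM, and in the 46 others in 39 with a median of 827 TPM. Clec10a was on in 11 and 37 of these cells, and Plscr1 had medians of 88.8 and 576 TPM. Ctla2b was on in 18 of the 30 and 17 of the 46, although its rho with Lck over all cells was 0.052. Split by Tox instead, Ctla2b was on in 9 of 28 cells with Tox at 10 TPM and in 26 of the 48 others. All 9 cells with Plscr1 under 10 TPM held Nkg7 and 8 held Lck at 10 TPM or more. Over all cells, Nkg7 was at that level in 47 and lower in 29. Plscr1 was on in 38 of those 47 cells and in all 29 others. Nkg7 and Lck were picked for running opposite to the mean of the 6 genes, so such an overlap is in part built in. Of 3 natural killer and innate lymphoid markers tested, Nkg7 alone lay past -0.3, with Gzma, a granzyme gene, at -0.26 and Id2, a transcription regulator, at 0.11. That list summed to between 3.02 and 11501 TPM (rho -0.65 with the mean of the 6 genes, median of its genes -0.26). Nkg7 is on the list and was picked for its low rho with the same mean, so the rho of the sum is in part built in. Of the T lymphoid markers, Cd3e was at 0 in every cell. The list summed to between 0 and 8409 TPM over cells (rho -0.50), a value in part built in too, as Lck is on the list. Of its 4 genes tested, Lck and Tcf7 (-0.34) lay past -0.3, with a median of -0.32, and Gata3, a T lineage factor, had -0.038. The part of such cells in the relations to Runx1 and Lmo2 was not tested beyond the following values. Without the 15 cells with Tcf7, a T lineage transcription factor, at 10 TPM or more, the rho with Runx1 was 0.59 for Plscr1, 0.49 for Wfdc17, 0.42 for Serpinb1a and 0.36 for Clec10a.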

How the data were processed

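Per the labels' protocols, single iHPCs were sorted and their cDNA amplified by kit (Discover-sc WTA) before library preparation (TruePrep). The authors deposited 1 table of TPM (15192 genes, a column per cell, each summing to 1000000), so read depth is unknown. StringTie 1.3.4, HISAT2 2.1.0, SAMtools 0.1.19 and bcl2fastq are named with build mm10, per the submitters' processing notes. Which annotation they used is not given in the sources used here. In the 76 columns, 0 pairs were identical.

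From these values, detection was set at 1 TPM and, for on and off, at 10 TPM. Spearman rho was computed on TPM and Pearson r on log2(TPM + 1) for 8034 genes in at least 10 cells (Python 3.11.15, pandas 2.3.3, scipy 1.17.1), after a test on simulated data. Intervals on shares are exact Clopper-Pearson 95% intervals and cover the counting of cells only. Cells of 1 sample are not replicates, so no p-value was made. Each library came from a sorted cell and no doublet caller was run, so the presence of doublets was not tested. RefSeq symbols and promoters (GRCm38.p6) and GENCODE M21 transcripts were used for positions and shared stretches. Members, gene lists, motifs and thresholds were chosen with earlier results of these data known. Named genes are the members, both factors, the 3 genes most like each member, the 10 most like their mean, up to 4 frequent genes per list with paralogues, and adjacent genes; genes at the limit of 0.4, list genes past 0.3 or -0.3, Plac8, Nkg7, Tox, Lck, Tcf7, Met, St14, Spint1, Mertk, C1qb, Cd3e, Gzma, Id2, Gata3, Lyz2, Cd68, Elane and others named for their role were chosen after their values were seen. Some genes taken by these rules are not reported here.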

Additional observations from a re-analysis of the deposited data

How the results depend on the processing

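The share of cells with at least 4 of the 6 genes, 86.8% at 1 TPM, was 96.1% at any value above 0, 67.1% at 5 TPM and 59.2% at 10 TPM, and 97.8% and 70% in cells with Lmo2 at 10 TPM or more and under it (a split added after seeing the data). The median number of genes per cell was 5 at any value above 0 and 4 otherwise. The median rho with Runx1 was 0.30 and 0.26 with Pearson correlation at pseudocounts of 1 and 0.1. The median rho of the 15 pairs was 0.34 for title numbers 2 to 6, 0.12 for numbers 7 to 11 and 0.41 without Ctla2b and Hgf (added). The median rho with Lmo2 was 0.45 without the cells with Tcf7 at 10 TPM (added). Genes with a rho of at least 0.4 made up 0.257% with Runx1 and 0.272% with Lmo2 among genes in 10 to 70 cells, and 0.281% and 0.359% with no filter. The rho of Wfdc17 with Lmo2 was -0.026 where both were on (added). The cause of these differences was not tested. Over all settings, the rho with Runx1 ran from 0.31 to 0.71 for Plscr1, 0.35 to 0.64 for Wfdc17, 0.21 to 0.56 for Serpinb1a and 0.096 to 0.51 for Clec10a, and with Lmo2 from 0.30 to 0.67, -0.026 to 0.60, 0.31 to 0.62 and 0.43 to 0.77. Each but the last range reached below 0.4. No paired analysis was possible because there is 1 group. TPM keeps no depth, so a 0 cannot be told from a failed capture.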
